A study of Homo sapiens with 8 samples.

Results

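The 51 genes described here encode proteins that build ribosomes in the nucleolus. They were given by name, not by their values, and all 51 were found among the 19583 rows of the deposited gene table and passed the filter on low values (a mean of at least 1). The cells were MDA-MB-231, an established human breast cancer line without estrogen and progesterone receptors, cultured in DMEM with serum. They carried a scrambled hairpin (shSC) or bore the label of a CHD4 knockdown (shCHD4). For 24 hours the cultures stood in 20% O2 or in 1% O2, which makes 4 groups of 2 libraries, 8 in all, and polyadenylated RNA was sequenced. The study's title names CHD4, the ATPase of the NuRD chromatin complex, as a regulator of hypoxia-inducible factors, the transcription factors that accumulate when oxygen is low. CHD4 RNA was not lower under its own label: its normalised read count was 278.2 to 304.6 over the 8 libraries, with a log2 difference between labels of 0.0018 at 20% O2 (95% interval -0.086 to 0.089) and 0.071 at 1% O2 (-0.017 to 0.16). The libraries are therefore called by their labels throughout. No source used here states how many hairpins, clones or separate cultures there were. The p-values therefore reflect only how far these libraries varied, and that variation may be technical.

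Ribosome production begins with RNA polymerase I, which copies the ribosomal DNA into a long precursor. Small nucleolar ribonucleoproteins (snoRNPs) modify that precursor, box C/D particles by ribose methylation and box H/ACA particles by pseudouridylation, while large sets of assembly factors cut, fold and export the future small and large subunits. The pathway takes much of a growing cell's energy, and the transcription factor MYC, which binds the E-box CACGTG, is known to raise many of its genes.

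At 1% O2 many of the genes were lower by small amounts. A gene is said to rise or fall, or to be called higher or lower, where the limma test of its log2 difference had a Benjamini-Hochberg adjusted p under 0.05 over all tested genes. Under shSC 32 of the 51 fell and none rose, where 17.9% of all 12645 tested genes fell and 17.4% rose. In the libraries labelled shCHD4 34 fell and none rose, against 10.7% and 12.3% of all genes. The median log2 difference of the 51 was -0.19 and -0.18, against -0.011 and -0.0037 over all tested genes, and no member changed with oxygen by as much as 2-fold. Between labels the differences were larger and went both ways: 33 members were lower and 10 higher in the libraries labelled shCHD4 at 20% O2, and 34 lower and 8 higher at 1% O2. There, however, 75.6% and 77.4% of all tested genes differed. Of all tested genes 38.6% were lower and 37% higher at 20% O2, and 39.2% lower and 38.2% higher at 1% O2.

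The promoters of these genes are shown first because the E-box is common in them. RefSeq promoter windows of 300 bases (250 before the start and 50 after, GRCh38.p14) were matched to 44 members, in 53 windows. No window was matched to POLR1E, NOP58, NOLC1, RRP12, BOP1, RRP1B and RRS1. CACGTG, which reads the same on both strands, was in at least 1 window of 21 of the 44 members (47.7%), against 12.5% of the 9309 tested genes with a window and 8.77% of all 27305 genes of the table. Per window of the same length the shares were 41.5%, 9.14% and 7.26%. Of the 25 E-boxes, 20 began within 50 bases of the start site and 16 lay after it. The members with CACGTG whose library values are given further on carry it in these 30 bases, written along the gene with the E-box in capitals.
UTP20: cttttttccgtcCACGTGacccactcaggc
NOP2: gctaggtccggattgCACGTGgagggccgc
BYSL: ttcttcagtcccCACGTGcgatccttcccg
WDR43: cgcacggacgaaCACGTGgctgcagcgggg
UTP14A: accttgggcCACGTGgaaaccaggggccag
DDX21: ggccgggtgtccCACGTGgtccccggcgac
NOC3L: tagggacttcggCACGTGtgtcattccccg
They lie at chr12:101280083-101280112 (plus strand) for UTP20, chr12:6568242-6568271 (minus) for NOP2, chr6:41921515-41921544 (plus) for BYSL, chr2:28894658-28894687 (plus) for WDR43, chrX:129905914-129905943 (plus) for UTP14A, chr10:68956604-68956633 (plus) for DDX21 and chr10:94362903-94362932 (minus) for NOC3L. In WDR43 the E-box begins 3 bases after the start site, in BYSL 28, in NOP2 35 and in NOC3L 19, whereas it begins 10 bases before the start in UTP20, 31 before in DDX21 and 241 before in UTP14A.

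The core letters of hypoxia-response elements, ACGTG or GCGTG on either strand, were more widespread. ACGTG was in 59.1% of the 44 members and 33.0% of tested genes, but it lies inside CACGTG: outside an E-box it was in 20.5% of members and 24.0% of tested genes. GCGTG was in 77.3% of members and 58.9% of tested genes. The median oxygen difference was -0.18 over the 21 members with CACGTG and -0.19 over the 23 without it under shSC, and -0.19 and -0.16 under the shCHD4 label. Between labels the medians were -0.22 with it and -0.20 without it at 20% O2, and -0.34 and -0.20 at 1% O2. These letters are a description of the windows, and no binding was measured.

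Under shSC at 1% O2, the 51 members ran from -0.44 to 0.14 on the log2 scale, and 48 lay below 0, against 52.3% of all genes. In 39 of them both 1% O2 libraries were below both 20% O2 libraries, as in 34.3% of all genes. In these bulk values, each scaled within its library, fewer transcripts per cell and a smaller share of the RNA cannot be told apart. The members together held 0.957% to 0.961% of the reads in the shSC libraries at 20% O2 and 0.818% to 0.852% at 1% O2. In the shCHD4 libraries the shares were 0.80% to 0.83% and 0.701% to 0.714%. These are shares of all reads of a library, a scale other than that of the tested values. A few members weigh most in them: NPM1 had 102280 reads in shSC at 20% O2, NCL 66270 and DDX21 47219. Of these, NPM1 and DDX21 did not pass the oxygen test under shSC.

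**Figure D1:**
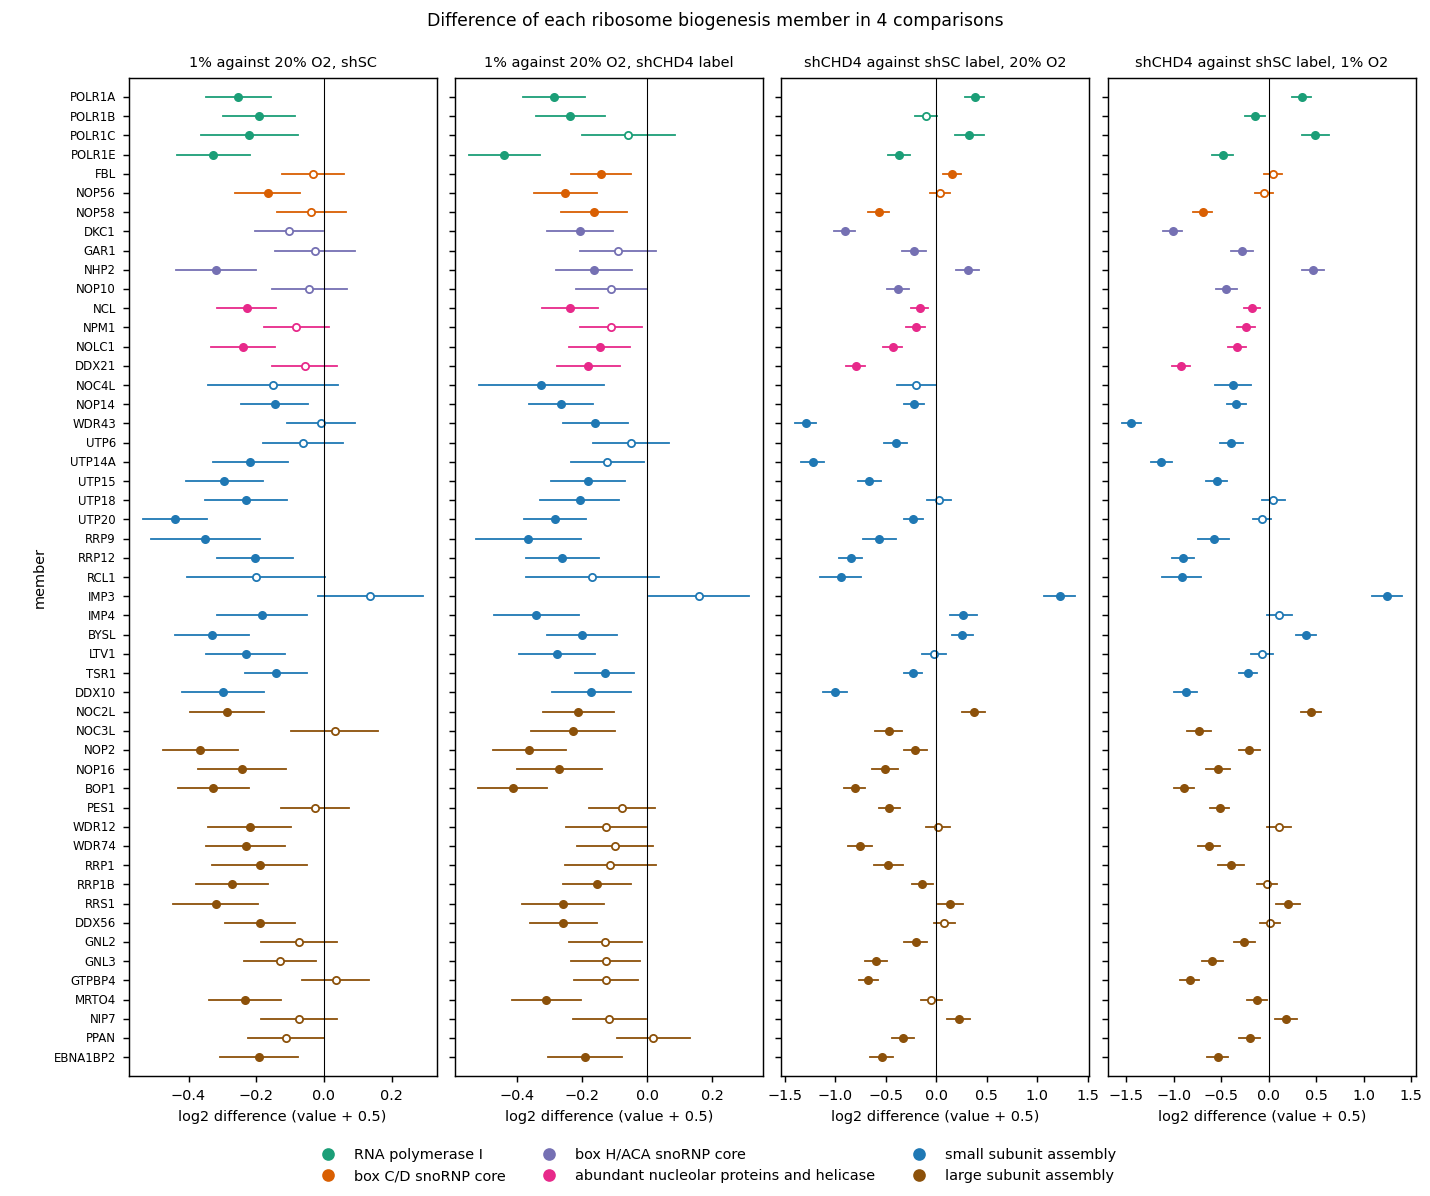
Log2 difference of each of the 51 members (rows, coloured by role) in the 4 comparisons, with 95% intervals; filled circles passed an adjusted p of 0.05 and open circles did not. In both oxygen panels the points lie mostly left of 0, between -0.44 and 0.16, while the label panels, whose axes are wider, run from -1.45 to 1.24.

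With the shCHD4 label 49 members lay below 0 at 1% O2 (50.9% of all genes), and in 47 both 1% O2 libraries were below both 20% O2 libraries (33.5%). The oxygen comparisons under the 2 labels use different libraries, whereas each oxygen comparison shares libraries with each label comparison. Of the 51 members, 27 fell under both, which is 84.4% of those that fell under shSC and 79.4% of those that fell under the shCHD4 label, where 6.88% of all genes fell under both. The log2 difference was below 0 under both labels in 47. Many of these calls are small enough to rest on 1 library: when each of the 8 was left out in turn, 21 of the 32 calls under shSC held every time (8.15% of all genes were lower by that rule, 10% higher) and 15 of the 34 under the shCHD4 label (2.48% lower, 4.71% higher). The total under the shCHD4 label came to 17 without its 20% O2 replicate 1, 17 without its 1% O2 replicate 1 and 20 without its 1% O2 replicate 2. By this stricter rule 9 members fell under both labels: POLR1A, POLR1B, POLR1E, NCL, UTP20, RRP9, NOP2, BOP1 and MRTO4 (1.56% of all genes).

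**Figure D2:**
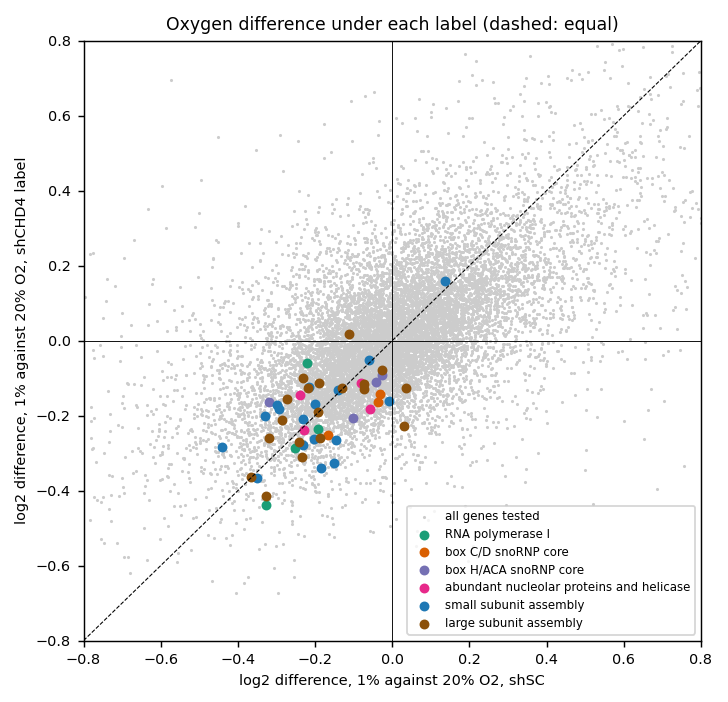
Log2 difference between 1% and 20% O2 under shSC (horizontal) and under the shCHD4 label (vertical) for the 51 members (coloured by role) and all tested genes (grey; those beyond 0.8 are not drawn). Of the members 47 lie at the lower left, and IMP3 is alone in the upper right.

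All 4 RNA polymerase I subunits among the members fell at 1% O2 under shSC, and 3 under the shCHD4 label (17.9% and 10.7% of all genes). The enzyme has other subunits. Of 11 polymerase I factors and further subunits outside the members, 1 fell under each label. POLR1A, the largest catalytic subunit, was at 147 and 148 in shSC at 20% O2, 126 and 122 in shSC at 1% O2, 187 and 198 in shCHD4 at 20% O2 and 161 and 154 in shCHD4 at 1% O2. At both labels the 1% O2 libraries were below the 20% O2 libraries, and the shCHD4 libraries were above the shSC libraries at the same oxygen. POLR1A was 1.19-fold lower at 1% O2 under shSC (log2 -0.25, 95% interval -0.35 to -0.16, adjusted p = 0.000340) and 1.22-fold lower under the shCHD4 label (adjusted p = 0.000214). POLR1E, a subunit that helps the enzyme start transcription, was at 92.2 and 91.2 in shSC at 20% O2, 75.2 and 70.9 in shSC at 1% O2, 70.1 and 71.6 in shCHD4 at 20% O2 and 53.3 and 50.8 in shCHD4 at 1% O2. Under each label its 1% O2 libraries were below its 20% O2 libraries, and at each oxygen level the shCHD4 libraries were below the shSC libraries. It had the largest oxygen difference of any member under the shCHD4 label (-0.44, interval -0.55 to -0.33, adjusted p = 7.45e-06), and fell by 0.33 under shSC. POLR1B, the second largest subunit, was lower at 1% O2 by both tests (-0.19 and -0.24). POLR1C, which RNA polymerase III also uses, fell under shSC (-0.22), a call that ended without shSC 20% O2 replicate 1 (adjusted p = 0.0703) or without shSC 1% O2 replicate 1 (adjusted p = 0.104); under the shCHD4 label its difference of -0.059 did not pass.

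Between labels the 4 polymerase subunits went different ways. POLR1A was 1.30-fold and 1.27-fold higher in the shCHD4 libraries at 20% and 1% O2 (log2 0.38 and 0.35), POLR1C was higher by 0.33 and 0.49, and POLR1E was lower by both tests (-0.37 and -0.48). POLR1B differed by -0.100, which did not pass, and -0.14, which passed, but not without shSC 1% O2 replicate 2 (adjusted p = 0.0715) or shCHD4 1% O2 replicate 1 (adjusted p = 0.0950).

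Runs of neighbouring genes on a chromosome differ together between the labels of this series, so each member was also set beside the median of the 40 tested genes nearest to it. The neighbours of POLR1A were higher by 0.32 at 20% O2 and 0.28 at 1% O2. With each library centred on them POLR1A was not called between labels (log2 0.085, adjusted p = 0.159, and 0.032, adjusted p = 0.598). POLR1C fell short at 20% O2 (0.0045, adjusted p = 0.954) and still passed at 1% O2. What the neighbours share was not tested.

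Among the box C/D proteins, NOP56, a core scaffold of the particle, was at 254 and 247 in shSC at 20% O2, 228 and 219 in shSC at 1% O2, 266 and 248 in shCHD4 at 20% O2 and 211 and 221 in shCHD4 at 1% O2. It was lower at 1% O2 under shSC (-0.17, adjusted p = 0.00912; 0.0735 without shSC 1% O2 replicate 2) and under the shCHD4 label (-0.25, adjusted p = 0.000783), and its groups overlapped between labels at both oxygen levels. The fall under shSC also ended after centring on neighbours (-0.12, adjusted p = 0.0570). Its label difference at 20% O2 changed sign with the scaling: it was 0.12 with the same total of reads per library (adjusted p = 0.0250) and -0.12 after centring (adjusted p = 0.0267). NOP58, its partner, was lower under the shCHD4 label by 0.57 and 0.69 on the log2 scale, beside neighbours at 0.037 and 0.032. FBL, the methyltransferase fibrillarin, was higher under that label at 20% O2 by 0.16, beside neighbours at 0.15; the call was lost after centring (-0.030, adjusted p = 0.581) and when shCHD4 20% O2 replicate 1 was left out (adjusted p = 0.0619). At 1% O2 FBL differed by 0.046, with 0.16 for equal totals (adjusted p = 0.00266) and -0.11 after centring (adjusted p = 0.0373). At 1% O2 against 20% O2, FBL and NOP58 differed by -0.033 and -0.038 under shSC, which did not pass. Under the shCHD4 label both passed (-0.14 and -0.16), and both calls ended without shCHD4 20% O2 replicate 1, 1% O2 replicate 1 or 1% O2 replicate 2 (adjusted p 0.0956 to 0.238).

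The box H/ACA proteins moved unequally between labels. DKC1, the pseudouridine synthase dyskerin, was at 262 and 267 in shSC at 20% O2, 258 and 235 in shSC at 1% O2, 143 and 139 in shCHD4 at 20% O2 and 120.4 and 123 in shCHD4 at 1% O2. All 4 libraries labelled shCHD4 were below all 4 shSC libraries, and DKC1 was 1.87-fold lower at 20% O2 (log2 -0.91, adjusted p = 4.52e-12) and 2.02-fold lower at 1% O2 (-1.01, adjusted p = 8.76e-13). Its neighbours on chromosome X were at -0.47 and -0.48. GAR1 and NOP10, small proteins of the same particle, were lower by 0.22 and 0.38 at 20% O2 and by 0.28 and 0.45 at 1% O2, with neighbours between -0.0062 and 0.17.

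NHP2, the fourth core protein, went the other way. It was at 74.6 and 71.2 in shSC at 20% O2, 55.3 and 61.5 in shSC at 1% O2, 91.6 and 89.6 in shCHD4 at 20% O2 and 79.7 and 81.8 in shCHD4 at 1% O2. The shCHD4 libraries were above the shSC libraries at both oxygen levels, by 1.24-fold (0.31, adjusted p = 5.75e-05) and 1.38-fold (0.47, adjusted p = 4.22e-07). After centring on neighbours, at 0.27 and 0.19, the difference at 20% O2 did not pass (0.053, adjusted p = 0.394), and that at 1% O2 did. NHP2 also had the largest oxygen fall of its group under shSC (-0.32, adjusted p = 0.000241), and a smaller one under the shCHD4 label (-0.16, adjusted p = 0.0405) that ended without any 1 of the 4 shCHD4 libraries (adjusted p 0.0955 to 0.222). Its gene overlaps exons of RMND5B, whose log2 differences between labels were -0.078 at 20% O2 and -0.36 at 1% O2. DKC1 differed with oxygen by -0.10 under shSC, which did not pass, and by -0.17 without shSC 1% O2 replicate 1. With all libraries it was called lower under shSC with equal totals (-0.16, adjusted p = 0.0131) and after centring (-0.19, adjusted p = 0.00951). Under the shCHD4 label DKC1 fell (-0.21), a call lost without shCHD4 20% O2 replicate 1 or 1% O2 replicate 1.

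**Figure D3:**
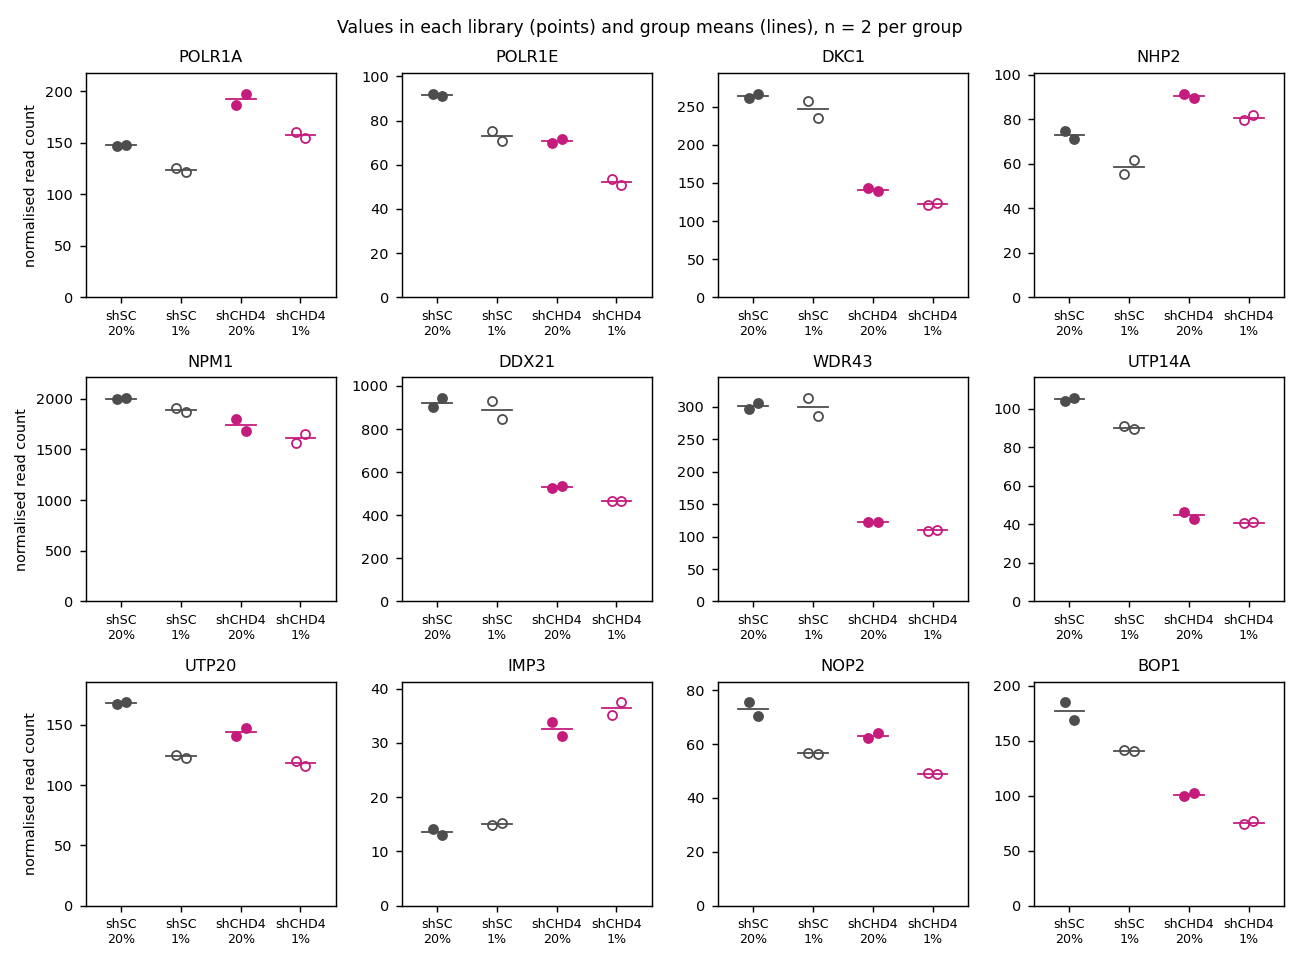
Normalised read count of 12 members in each of the 8 libraries (points; filled 20% O2, open 1% O2; grey shSC, magenta shCHD4 label), with group means as lines and axes starting at 0. DKC1, DDX21, WDR43 and UTP14A separate by label, IMP3 is higher under the shCHD4 label, and POLR1E, UTP20, NOP2 and BOP1 are lower at 1% O2 under both labels.

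The 4 abundant nucleolar proteins were all called lower under the shCHD4 label at 20% and at 1% O2 (38.6% and 39.2% of all genes). The calls of NCL at both levels and of NPM1 at 20% O2 depended on the scaling or the centring, as given below. NPM1, the histone and ribosome chaperone nucleophosmin, was at 1993 and 2009 in shSC at 20% O2, 1909.8 and 1874 in shSC at 1% O2, 1799 and 1678 in shCHD4 at 20% O2 and 1563 and 1654 in shCHD4 at 1% O2. All 4 shCHD4 libraries were below all 4 shSC libraries. It was 1.15-fold and 1.18-fold lower in the shCHD4 libraries (-0.20 and -0.23), and its oxygen differences of -0.081 and -0.11 did not pass. With the same total of reads per library they were -0.14 (adjusted p = 0.0204) and -0.13 (adjusted p = 0.0337). After centring on neighbours the label difference at 20% O2 fell short (adjusted p = 0.0676). NPM1 is known to have processed pseudogenes, and how reads shared with them were counted was not examined. DDX21, an RNA helicase of the nucleolus that takes part in polymerase I transcription and rRNA processing, was at 901 and 945 in shSC at 20% O2, 929 and 846 in shSC at 1% O2, 526 and 535 in shCHD4 at 20% O2 and 468 and 468 in shCHD4 at 1% O2. The labels did not overlap, and DDX21 was 1.74-fold lower at 20% O2 (-0.80, adjusted p = 1.73e-11) and 1.89-fold lower at 1% O2 (-0.92, adjusted p = 2.00e-12), beside neighbours at -0.20 and -0.18.

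NOLC1, a chaperone of snoRNPs, was lower under the shCHD4 label by 0.43 and 0.34. NCL, nucleolin, was lower by 0.16 and 0.17, but with every library scaled to the same total of reads these differences were -0.083 (adjusted p = 0.0685) and -0.059 (adjusted p = 0.185). NCL was lower at 1% O2 under both labels (-0.23 and -0.24), and NOLC1 under shSC (-0.24). Under the shCHD4 label the oxygen differences of NOLC1 (-0.15) and DDX21 (-0.18) passed with all libraries. The NOLC1 call was lost without shCHD4 20% O2 replicate 1 or either 1% O2 replicate (adjusted p 0.0770 to 0.236), and the DDX21 call without shCHD4 20% O2 replicate 2 or either 1% O2 replicate (adjusted p 0.0597 to 0.0710).

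Small subunit factors held the largest changes of the set in both directions. Of these 17 genes, 12 fell at 1% O2 under shSC and 13 under the shCHD4 label (17.9% and 10.7% of all genes). Between labels 11 were lower and 3 higher at 20% O2 (38.6% and 37% of all genes), and 11 lower and 2 higher at 1% O2 (39.2% and 38.2%). UTP20, a very large scaffold protein of the small subunit processome, was at 167 and 169 in shSC at 20% O2, 125 and 122 in shSC at 1% O2, 141 and 147 in shCHD4 at 20% O2 and 120.2 and 116 in shCHD4 at 1% O2. The oxygen groups did not overlap under either label. At 1% O2 it was 1.36-fold lower under shSC (-0.44, interval -0.54 to -0.35, adjusted p = 7.36e-07), the largest oxygen fall among the 51, and 1.22-fold lower under the shCHD4 label (-0.28, adjusted p = 0.000215). UTP20 was lower under the shCHD4 label at 20% O2 (-0.22), though not after centring (-0.073, adjusted p = 0.235), and its difference at 1% O2 (-0.068) did not pass. RRP9, a protein of the snoRNP that guides the first cuts, was lower by 0.35 and 0.37 with oxygen and by 0.56 and 0.58 between labels.

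BYSL, an assembly factor of the small subunit, was at 77.9 and 76.1 in shSC at 20% O2, 59.4 and 62.9 in shSC at 1% O2, 92.2 and 92.5 in shCHD4 at 20% O2 and 77.96 and 82.8 in shCHD4 at 1% O2. The 1% O2 libraries were below the 20% O2 libraries under each label, and the shCHD4 libraries above the shSC libraries at each oxygen level. At 1% O2 it was 1.26-fold lower under shSC (-0.33, adjusted p = 8.02e-05). Under the shCHD4 label it fell by 0.20 (adjusted p = 0.00965), but not without shCHD4 20% O2 replicate 1 or 2 or 1% O2 replicate 1 (adjusted p 0.0531 to 0.148). BYSL was higher under the shCHD4 label by 0.26 and 0.39, about as its neighbours were (0.29 and 0.30), and after centring on them it differed by -0.0091 (adjusted p = 0.878) and 0.084 (adjusted p = 0.136).

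WDR43, a subunit of the complex that binds the precursor first, had the largest label difference. It was at 297 and 306 in shSC at 20% O2, 314 and 286 in shSC at 1% O2, 123 and 123 in shCHD4 at 20% O2 and 109 and 110.3 in shCHD4 at 1% O2. The shSC libraries were between 286 and 314 and the shCHD4 libraries between 109 and 123, so that WDR43 was 2.45-fold lower at 20% O2 (-1.29, interval -1.39 to -1.19, adjusted p = 2.22e-14) and 2.72-fold lower at 1% O2 (-1.45, adjusted p = 3.96e-15). Its neighbours were at -0.15 and -0.12. Oxygen left it at -0.0080 under shSC, which did not pass, and -0.16 under the shCHD4 label, which passed with all libraries and not without any 1 of the 4 shCHD4 libraries (adjusted p 0.0829 to 0.140).

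UTP14A, the X-linked factor that works with the helicase DHX37, was at 104 and 106 in shSC at 20% O2, 91.2 and 89.4 in shSC at 1% O2, 46.6 and 42.9 in shCHD4 at 20% O2 and 40.9 and 41.2 in shCHD4 at 1% O2. Every shCHD4 library was below every shSC library. It was 2.33-fold and 2.19-fold lower in the shCHD4 libraries (-1.22, adjusted p = 2.64e-13, and -1.13, adjusted p = 7.95e-13), where its neighbours were at -0.65 and -0.59. With oxygen it fell under shSC (-0.22) and differed by -0.12 under the shCHD4 label, which did not pass. DDX10, an RNA helicase of the processome, was at 155 and 158 in shSC at 20% O2, 137 and 118 in shSC at 1% O2, 77.3 and 78.5 in shCHD4 at 20% O2 and 68.5 and 69.7 in shCHD4 at 1% O2. Here too the labels did not overlap. It was 2.0-fold lower at 20% O2 (-1.0, adjusted p = 1.55e-11) and 1.83-fold lower at 1% O2 (-0.87), beside neighbours at 0.10 and 0.19. It fell at 1% O2 under shSC (-0.30), but not after centring (-0.15, adjusted p = 0.0685). Its fall under the shCHD4 label (-0.17) ended without any 1 of the 4 shCHD4 libraries (adjusted p 0.117 to 0.188). RCL1, a protein of the processome, and RRP12, an export factor, were lower by 0.94 and 0.85 at 20% O2 with neighbours at -0.0061 and -0.048.

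IMP3 was the only member more than 2-fold higher under the shCHD4 label. It belongs to a small complex with IMP4 that pairs the guide snoRNA with the precursor, and was at 14.2 and 13.1 in shSC at 20% O2, 14.9 and 15.2 in shSC at 1% O2, 33.8 and 31.2 in shCHD4 at 20% O2 and 35.1 and 37.5 in shCHD4 at 1% O2. All 4 shCHD4 libraries were above all 4 shSC libraries, by 2.34-fold at 20% O2 (1.22, interval 1.07 to 1.38, adjusted p = 2.92e-11) and 2.37-fold at 1% O2 (1.24, adjusted p = 2.06e-11), beside neighbours at -0.19 and -0.20. IMP3 is among the 23 of the 51 members whose exons overlap those of another gene in GENCODE 29 (snoRNA and miRNA genes aside). It overlaps exons of SNX33 on the opposite strand, and no source used here states whether reads were counted by strand. SNX33 itself was higher under the shCHD4 label by 0.52 and 0.43, and at 1% O2 by 0.68 under shSC and 0.59 under the shCHD4 label, whereas the oxygen differences of IMP3 were 0.14 and 0.16 and did not pass. IMP4 was higher under the shCHD4 label at 20% O2 (0.27) and not called at 1% O2 (0.11), and it fell at 1% O2 under both labels (-0.18 and -0.34). The first of these falls ended without shSC 20% O2 replicate 1 or either shSC 1% O2 replicate (adjusted p 0.0756 to 0.180).

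Of the 19 large subunit factors 12 fell at 1% O2 under shSC and 10 under the shCHD4 label (17.9% and 10.7% of all genes). Between labels 13 were lower and 3 higher at each oxygen level. Of all genes, 38.6% were lower and 37% higher at 20% O2, and 39.2% and 38.2% at 1% O2. NOP2, an rRNA methyltransferase, was at 75.6 and 70.5 in shSC at 20% O2, 56.8 and 56.4 in shSC at 1% O2, 62.2 and 64.2 in shCHD4 at 20% O2 and 49.3 and 48.8 in shCHD4 at 1% O2. Neither the oxygen groups under a label nor the labels at an oxygen level overlapped. It fell by 0.36 under both labels (adjusted p = 4.21e-05 and 9.36e-05), with an interaction of 0.0018 (interval -0.16 to 0.16). Its lower level under the shCHD4 label (-0.21 and -0.21) was not called after centring on neighbours (-0.043 and -0.11, adjusted p = 0.484 and 0.0653), nor at 1% O2 with equal totals (-0.092, adjusted p = 0.127).

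BOP1, PES1 and WDR12 form the PeBoW complex, which is needed to process the large subunit precursor. BOP1 was at 185 and 169 in shSC at 20% O2, 141 and 141 in shSC at 1% O2, 99.6 and 102 in shCHD4 at 20% O2 and 74.2 and 77.1 in shCHD4 at 1% O2. Its lowest libraries were those of shCHD4 at 1% O2 and its highest those of shSC at 20% O2, with no overlap between groups. It was 1.25-fold lower at 1% O2 under shSC (-0.33, adjusted p = 6.86e-05) and 1.33-fold lower under the shCHD4 label (-0.41, adjusted p = 1.06e-05). PES1 differed by -0.026 and -0.079, which did not pass, and WDR12 by -0.22, which passed, and -0.13, which did not. Between labels BOP1 was lower by 0.81 and 0.90 with neighbours at -0.46 and -0.56, PES1 was lower by 0.46 and 0.52 with neighbours at -0.27 and -0.36, and WDR12 differed by 0.018 and 0.11, which did not pass.

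NOC2L, one of the NOC proteins that travel with the large subunit precursor, was at 109.7 and 97.9 in shSC at 20% O2, 84.7 and 85.0 in shSC at 1% O2, 136 and 133 in shCHD4 at 20% O2 and 116 and 116 in shCHD4 at 1% O2. All 4 shCHD4 libraries were above all 4 shSC libraries. It was 1.29-fold and 1.36-fold higher in the shCHD4 libraries (0.37, adjusted p = 3.73e-06, and 0.45, adjusted p = 3.38e-07), beside neighbours at 0.22 and 0.24, and both calls held after centring. It fell at 1% O2 under shSC (-0.29). The fall under the shCHD4 label (-0.21) ended without shCHD4 20% O2 replicate 1 or either 1% O2 replicate (adjusted p 0.0555 to 0.0711).

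NOC3L, which binds NOC2L, went the opposite way between labels. It was at 111 and 118 in shSC at 20% O2, 126 and 109 in shSC at 1% O2, 84.9 and 80.3 in shCHD4 at 20% O2 and 69.2 and 71.7 in shCHD4 at 1% O2. The shCHD4 libraries were lower at 20% O2 by 1.39-fold (-0.47, adjusted p = 1.36e-06) and at 1% O2 by 1.66-fold (-0.73, adjusted p = 3.32e-09), and under shSC the oxygen groups overlapped. Under the shCHD4 label it fell at 1% O2 (-0.23), but not without shCHD4 20% O2 replicate 1 (adjusted p = 0.124) or 1% O2 replicate 1 (adjusted p = 0.111). GTPBP4, a nucleolar GTPase, was at 254 and 257 in shSC at 20% O2, 273 and 251 in shSC at 1% O2, 164 and 157 in shCHD4 at 20% O2 and 145 and 148 in shCHD4 at 1% O2. The labels did not overlap, whereas the oxygen groups did under shSC. It was 1.59-fold and 1.78-fold lower under the shCHD4 label (-0.67 and -0.83, adjusted p = 2.60e-10 and 1.02e-11), and its oxygen differences (0.035 and -0.13) did not pass. The second, with an adjusted p of 0.0572, passed without any 1 of the 4 shSC libraries (0.0391 to 0.0408).

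The remaining small subunit factors were mostly lower under the shCHD4 label. UTP15 and UTP6, subunits of early complexes of the processome, were lower between labels (-0.66 and -0.55 for UTP15, -0.40 and -0.39 for UTP6), as were NOP14 (-0.22 and -0.34) and TSR1 (-0.23 and -0.22), although TSR1 was not called after centring on its neighbours (-0.017, adjusted p = 0.770, and 0.036, adjusted p = 0.533). NOC4L, the partner of NOP14, was lower at 1% O2 (-0.37; -0.17, adjusted p = 0.0960, after centring), and its difference of -0.20 at 20% O2 did not pass (-0.32, adjusted p = 0.0121, without shCHD4 20% O2 replicate 2). UTP18 and LTV1, the latter a factor of late small subunit assembly, were called at neither oxygen level between labels (0.026 and 0.049, -0.025 and -0.072). LTV1 fell at 1% O2 by both tests (-0.23, which ended without shSC 1% O2 replicate 2 with an adjusted p of 0.0522, and -0.28), and so did UTP18 (-0.23 and -0.21). The first fall of UTP18 ended after centring (-0.13, adjusted p = 0.0755), and the second without shCHD4 20% O2 replicate 1 or either 1% O2 replicate (adjusted p 0.0698 to 0.277). UTP6 and RCL1 passed neither oxygen test, although RCL1 (-0.20 under shSC) was called there with equal totals (-0.25, adjusted p = 0.0479) and after centring (-0.31, adjusted p = 0.0163).

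Among the remaining large subunit factors, WDR74, NOP16, EBNA1BP2, RRP1 and GNL3 (nucleostemin) were lower under the shCHD4 label at both oxygen levels. At 20% O2 the differences were -0.76 for WDR74, -0.50 for NOP16, -0.54 for EBNA1BP2, -0.47 for RRP1 and -0.59 for GNL3. With oxygen, MRTO4, which prepares the ribosomal stalk, fell under both labels (-0.23 and -0.31), as did DDX56, an RNA helicase (-0.19, which ended without shSC 20% O2 replicate 1 with an adjusted p of 0.0533, and -0.26). RRP1B and RRS1 also fell under both (-0.27 and -0.15, -0.32 and -0.26). The fall of RRP1B under the shCHD4 label ended without any 1 of the 4 shCHD4 libraries (adjusted p 0.0669 to 0.237), and that of RRS1 without shCHD4 20% O2 replicate 1 (0.0672) or 1% O2 replicate 2 (0.0661). WDR74 fell under shSC (-0.23), but not after centring (-0.14, adjusted p = 0.0555), and differed by -0.099 under the shCHD4 label, which did not pass. GNL2, NIP7 and PPAN passed neither oxygen test, nor did GNL3 with all libraries (-0.13 and -0.13). Without shSC 1% O2 replicate 1 the first was -0.19, and without shCHD4 20% O2 replicate 2 the second was -0.19. With equal totals GNL3 was called lower under shSC (-0.19, adjusted p = 0.00667) and under the shCHD4 label (-0.15, adjusted p = 0.0359). PPAN was then called lower under shSC (-0.17, adjusted p = 0.0192) and GNL2 under the shCHD4 label (-0.15, adjusted p = 0.0474).

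**Figure D4:**
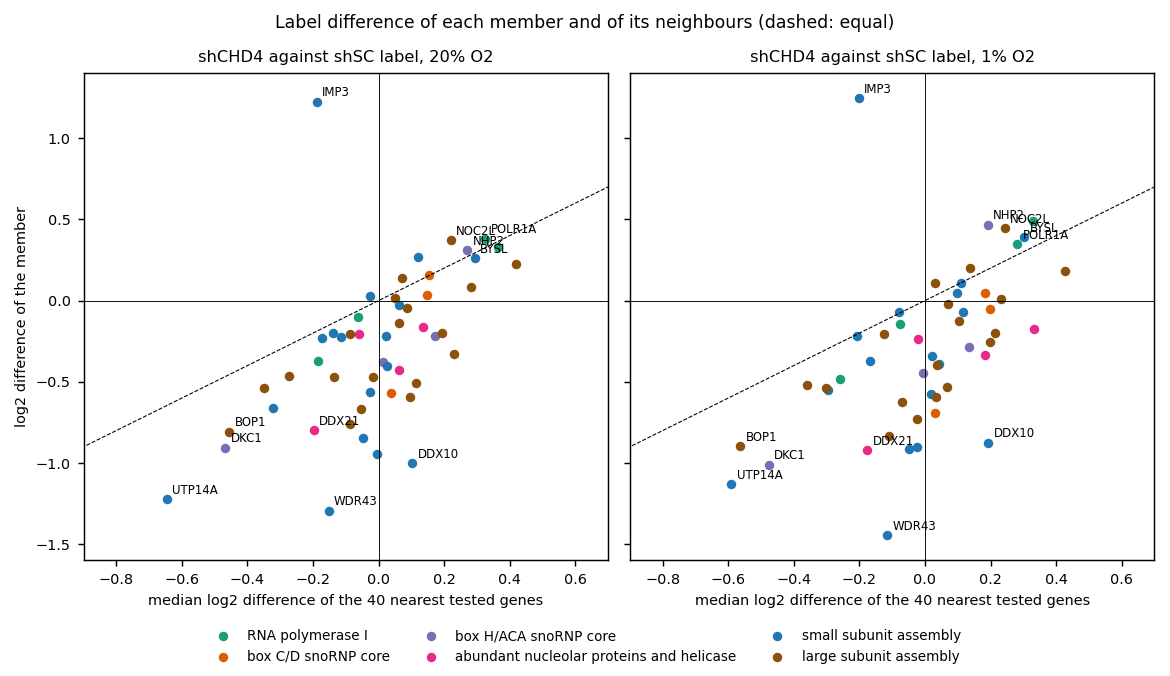
Log2 difference between labels of each member (vertical, coloured by role) against the median of its 40 nearest tested genes (horizontal) at 20% O2 (left) and 1% O2 (right); the dashed line marks equality. POLR1A, NHP2 and BYSL lie near the line at 20% O2, UTP14A, DKC1 and BOP1 lie below it beside neighbours that are also lower, and WDR43, DDX10 and IMP3 lie far from it.

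Across both oxygen levels 31 members were lower under the shCHD4 label, against 34.7% of all genes, 8 were higher (33.4%) and 5 were called at neither level. By call at a single level the shares over all genes were 38.6% lower and 37% higher at 20% O2, and 39.2% lower and 38.2% higher at 1% O2. The libraries of the labels did not overlap in 35 members that were lower and 11 that were higher at 20% O2 (43.8% and 42.6% of all genes), and in 35 and 12 at 1% O2 (44.9% and 43.9%). The range was -1.29 to 1.22 with a median of -0.22 at 20% O2, and -1.45 to 1.24 with a median of -0.28 at 1% O2. Centring on neighbours left 29 of the 33 lower and 3 of the 10 higher calls at 20% O2 (IMP3, IMP4 and NOC2L), and 30 of the 34 and 4 of the 8 at 1% O2 (POLR1C, NHP2, IMP3 and NOC2L). With every library scaled to the same total of reads, which raises the median of all genes by 0.11 at 1% O2, the split there was 13 higher and 29 lower: FBL, UTP18, IMP4, WDR12 and DDX56 were added and POLR1B, NCL, NOP2, MRTO4 and PPAN lost. At 20% O2, where equal totals raise that median by 0.079, the split was 12 higher and 31 lower. NOP56 and DDX56 were added there and NCL and RRP1B lost. DDX56 had the opposite sign after centring, at -0.17 and -0.19. The shares over all genes given above are from the fit without equal totals or centring. Those under these settings are not given here.

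Some of the smaller label calls rested on 1 library. At 20% O2 this holds for RRS1 (0.14), lost in 5 of the 8 fits that leave out a library (adjusted p 0.0518 to 0.215), RRP1B (-0.14), lost without shSC 20% O2 replicate 2 (0.0503) or shCHD4 20% O2 replicate 1 (0.175), and GNL2 (-0.20), lost without shCHD4 20% O2 replicate 2 (0.0558). At 1% O2 it holds for MRTO4 (-0.12), lost without any 1 of the 4 libraries compared (0.0644 to 0.118), NIP7 (0.18), lost without replicate 2 of either label (0.0696 and 0.0798), and for RRS1 (0.20) and PPAN (-0.20), both lost without shCHD4 1% O2 replicate 1 (0.0591 and 0.0504). With all 8 left out in turn, 31 lower and 8 higher calls held every time at 20% O2 (33% and 30.3% of all genes), and 31 and 6 at 1% O2 (33.2% and 31.7%).

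No member's oxygen response was called different between the labels. The interaction of label and oxygen passed for 0 of the 51 with limma, edgeR or DESeq2, and for 4.36% of all genes with limma (2.21% higher, 2.14% lower). At an unadjusted p under 0.05 it was 4 of the 51, NOC3L, GTPBP4, UTP20 and WDR43, and 2301 of the 12645 genes. The smallest p belonged to NOC3L, whose difference at 1% O2 was 0.032 under shSC and -0.23 under the shCHD4 label (interaction -0.26, interval -0.44 to -0.077, adjusted p = 0.102). Without shSC 1% O2 replicate 2, in which NOC3L was at 109 against 126 in the other replicate, the interaction was -0.37 and passed (adjusted p = 0.0171). It was also called after centring on neighbours (-0.34, adjusted p = 0.0237). The next in order of p had interactions of -0.16 (interval -0.30 to -0.023) for GTPBP4, 0.16 (0.022 to 0.29) for UTP20, -0.15 (-0.29 to -0.011) for WDR43, 0.15 (-0.011 to 0.32) for NHP2 and -0.12 (-0.26 to 0.014) for DDX21.

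The other genes of the pathway, 123 in 5 lists, also had more falls than rises at 1% O2. Under shSC 46 fell and 4 rose at 1% O2, and under the shCHD4 label 43 fell and 4 rose, where 17.9% and 10.7% of all tested genes fell and 17.4% and 12.3% rose. By list, 14 and 17 of 35 other small subunit factors fell under shSC and the shCHD4 label, 17 and 14 of 42 large subunit factors, 10 and 8 of 23 proteins of the nuclear exosome and RNase MRP, 4 and 3 of 12 snoRNP assembly factors, and 1 and 1 of 11 polymerase I factors and further subunits, a share no higher than that of all genes under either label. The 4 that rose in each, chosen for mention after their values were seen, were EFTUD1 (0.45 and 0.20) and RSL24D1 (0.23 and 0.21), which act late in large subunit maturation, and GLTSCR2 (0.17 and 0.15) and PIH1D1 (0.14 and 0.21). None of the 4 was called under the shCHD4 label without its 20% O2 replicate 2 or without its 1% O2 replicate 2, and the falls there came to 17 and 18 without its 20% O2 replicate 1 or 1% O2 replicate 1, and to 28 and 18 without the replicates 2. Under shSC the calls of PIH1D1 were lost without 5 of the 8 libraries, and that of GLTSCR2 without shSC 1% O2 replicate 2 (adjusted p = 0.106).

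**Figure D5:**
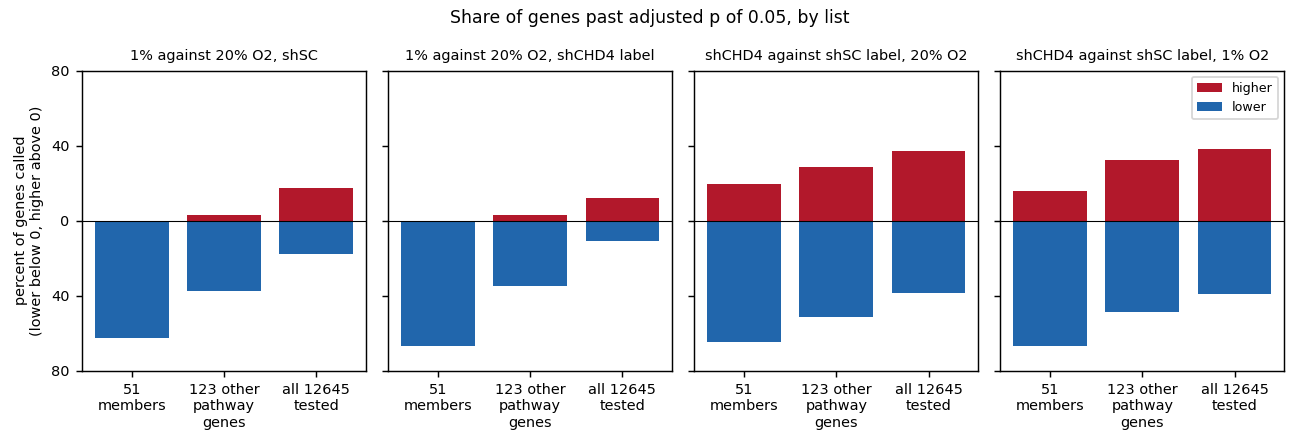
Percent of genes past an adjusted p of 0.05, higher (red, upwards) or lower (blue, downwards), among the 51 members, the 123 other pathway genes and all 12645 tested genes, in each of the 4 comparisons. At 1% O2 the members have 32 and 34 lower calls and no higher call, while between labels all 3 bars extend both ways.

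Between labels 63 of the 123 were lower and 35 higher at 20% O2 (38.6% and 37% of all genes), and 60 and 40 at 1% O2 (39.2% and 38.2%). By list at 20% O2, 23 small subunit factors were lower and 8 higher, and 25 large subunit factors were lower and 10 higher. The other lists were more even or leaned higher: 5 lower and 4 higher polymerase I factors, 7 and 8 exosome and RNase MRP proteins, and 3 and 5 snoRNP assembly factors. With equal totals the split was nearer to even, 54 lower and 46 higher at 20% O2 and 52 and 47 at 1% O2. The shares over all genes with equal totals are not given here. The strongest were in the large subunit list: NMD3, the export adaptor of that subunit, was lower by 1.52 and 1.51, PELP1 by 1.51 and 1.78, and RSL24D1 by 1.14 and 1.16. TAF1D, TAF1A and TAF1B, subunits of the factor that places polymerase I on its promoter, were lower by 0.87, 0.75 and 0.47 at 20% O2. TAF1C, another subunit of that factor, named here after its values were seen, was higher by 0.64 at 20% O2 and by 0.44 at 1% O2, the latter not after centring on neighbours (-0.013, adjusted p = 0.885). WDR36, NAT10 and RRP7A of the small subunit list were lower by 0.87, 0.67 and 0.39 at 20% O2. In the list of exosome and RNase MRP proteins RPP40 was higher by 1.08 and 1.05 and RPP38 and RPP14 lower by 1.01 and 0.72 at 20% O2, all subunits of RNase P. RUVBL2, an ATPase that helps assemble snoRNPs, was higher by 0.58 and 0.65, whereas NAF1 and ZNHIT6, also assembly factors of snoRNPs, were lower by 0.62 and 0.43 at 20% O2. None of the 123 passed the interaction test.

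Depth was high for these genes. The libraries held 24947627 to 31903585 recovered reads, and the lowest read count of any member in any library was 202, for RCL1. The line's markers VIM, CD44, KRT18 and AXL were expressed in every library (211 to 6856), while ESR1, PGR and CDH1 stayed at or below 0.33 and GATA3 at 8.38 to 14.6. Of markers of other cell types, PTPRC, DCN, CDH5 and VWF were at most 0.64, and CD14, LUM, PDGFRB and PECAM1 at most 4.21.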

How the data were processed

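RNA was measured by sequencing of polyadenylated RNA in 8 libraries, prepared with a column RNA kit, DNase and an mRNA library kit per the labels' protocols. Reads were processed with bcl2fastq 2.17, FastQC 0.11.2, TopHat, Picard 1.127, featureCounts and edgeR on hg19, per the submitters' processing notes. The deposited signal values are called normalised read counts here: each is a whole number of reads times 1 step per library (100% whole within 0.01 reads), not divided by gene length, although the table is named for FPKM. No source used here states the strand setting.

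Genes with a mean of at least 1 were tested on log2(value + 0.5) with limma 3.58.1 (R 4.3.3, trend) in 1 fit of the 4 group means, with two-sided p-values adjusted by Benjamini-Hochberg over all 12645 genes and a threshold of 0.05, in 5 comparisons. Folds are on that log2 scale. Exact permutation of 2 against 2 libraries cannot go below p = 0.33. Alternatives were 19 planned settings and 2 added after seeing the data (same total per library, and centring on the 40 nearest tested genes). Values in every library are given for 18 members: the 4 with the smallest p in each direction in each of the 4 two-group comparisons, the 6 with the smallest interaction p and the highest mean in each role. Of each other pathway list the 3 genes with the smallest p are named. The members were given by name, and the other lists were written without looking at single genes. Earlier results of these data were, however, known when members and lists were chosen. The fits were tested on simulated data.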

Additional observations from a re-analysis of the deposited data

How the results depend on the processing

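No reported call of a member changed direction under the 21 alternatives. Of 104 alternative counts of called members, 97 stayed within 1.5 times the reported one. These counts pool both directions and include those of the interaction, which was reported as 0. They do not show whether the same members were called. Some label differences that were not called did pass in opposite directions with equal totals and after centring on neighbours. DDX56 was at 0.16 and -0.17 at 20% O2, and at 0.12 and -0.19 at 1% O2. NOP56 at 20% O2 (0.12 and -0.12) and FBL at 1% O2 (0.16 and -0.11) did the same. Shares of all genes under the settings of this paragraph are not given here. Whether the members lost more calls than all genes did can therefore not be told from the counts that follow. The 34 falls under the shCHD4 label came to 22 when genes of low level were kept and 18 when the variance trend was dropped. Leaving out 1 library gave 17 to 35 there (17 without shCHD4 20% O2 replicate 1, 17 without 1% O2 replicate 1, 20 without 1% O2 replicate 2), 24 to 33 under shSC, 40 to 44 between labels at 20% O2, 38 to 42 at 1% O2 and 0 to 1 for the interaction. The interaction call, NOC3L, arose without shSC 1% O2 replicate 2 (-0.37) and, in 1 member, after centring on neighbours (-0.34). Among the label calls that this centring ended were those of POLR1A (0.085 at 20% O2 and 0.032 at 1% O2) and BYSL (-0.0091 and 0.084). NHP2 lost its call at 20% O2 (0.053), and further members lost theirs at one level or both. The causes were not tested. With the replicate number as a block the called members were 32, 33, 43, 42 and 0, against 32, 34, 43, 42 and 0. The labels do not say that the numbers pair the libraries. Deviations of same-numbered libraries correlated between -0.121 and 0.124 over all tested genes. Over those with a mean of at least 5 the range was -0.203 to 0.189. Depth limits these genes little, since the fewest reads of a member in a library were 202, but 2 libraries a group limit every interval.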

Other observations

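Of the members, 8 hold snoRNA genes within their gene models (GENCODE 29, used for such relations only): NOP56 and GNL3 with 5 each, NOP58 with 4, NCL and WDR43 with 3 each, and DKC1, TSR1 and PPAN with 2 each. SnoRNAs of this kind are cut from introns of their host transcripts, and they guide the modification of ribosomal RNA. At 1% O2, 3 of the 8 hosts fell under shSC and 6 under the shCHD4 label, with median log2 differences of -0.12 and -0.16, where 17.9% and 10.7% of all genes fell. With each library left out in turn, NCL alone held under shSC, and NOP56 and NCL under the shCHD4 label. Between labels 7 of the 8 were lower at each oxygen level (38.6% and 39.2% of all genes), and the medians were -0.45 at 20% O2 and -0.41 at 1% O2. NOP56 was the host not called between labels. The snoRNAs themselves were not analysed here, and no test of the hosts against other members was made.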
